A study of Mus musculus with 2 samples.

Results

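The early growth response (EGR) transcription factors and the NGFI-A binding (NAB) corepressors were followed as a set of 5 genes, Egr1, Egr2, Egr3, Nab1 and Nab2, in mouse macrophages with and without interleukin-4 (IL-4). The set is defined by gene symbol, without a cutoff on a measured value. Its members and the gene lists used below were chosen with earlier results of these data known. All 5 genes were listed in both libraries, out of 15623 genes listed in 1 or both. RNA was sequenced from peritoneal macrophages of wild-type C57BL/6 mice aged 6 to 8 weeks, which had been drawn into the cavity by thioglycollate, purified by adherence and starved in low serum. One group was left nontreated (NT) and the other received mouse IL-4 for 6 h, a cytokine of type 2 immunity that turns macrophages towards the alternative (M2) state. Each group held 1 library, so no difference could be set against the spread between animals, and the number of mice behind a library was not given in the sources used here. The labels name peritoneal macrophages as the source but bone marrow as the tissue, and the former was used.

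EGR proteins are zinc-finger activators that bind GC-rich DNA, and their genes are immediate early genes, switched on within minutes by the ERK cascade through serum response factor (SRF). Nab1 and Nab2 encode corepressors that dock on an inhibitory domain of EGR1, EGR2 and EGR3 and hold back their activity, in part through the NuRD chromatin complex. Nab2 is itself a target of EGR factors, which makes a feedback loop. In myeloid cells, PU.1 with EGR and NAB proteins favours the macrophage over the neutrophil fate, and Egr2 has been used as a marker of alternatively activated macrophages.

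The NT library held 11035641 expected counts and the IL-4 library 11250099. An expected count is the estimate of the reads that belong to a gene, and FPKM is that estimate scaled for transcript length and depth. The log2 ratio below is IL-4 over NT on counts scaled to these totals, with 0.5 count added, and its interval is an exact 95% interval that covers counting error only. Copies made by PCR were counted as separate reads, so the true uncertainty may be larger. A gene was called when its ratio reached 0.75 in size with an exact p-value of at most 0.05 and an adjusted value of at most 0.5, which compares 2 libraries and not the conditions. Among 15593 tested genes 4.09% were called higher and 6.75% lower. Of the 5 members, 2 were called higher (Egr2 and Nab2), 0 were called lower and 3 were not called.

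Marker genes were read to check the cell type. All 8 macrophage markers were listed in both libraries, and their summed level was 14906 FPKM in NT and 14769 FPKM in IL-4, most of it Lyz2 (11289 and 10811 FPKM) and Cd68 (3240 and 3465 FPKM). Of these 8, Csf1r was called higher (log2 ratio 0.90) and Cd14 lower (-1.07). The summed levels of other cell types were far lower in the NT and IL-4 libraries. They were 14.0 and 9.39 FPKM for 3 of 8 neutrophil markers, with S100a9, Ly6g, Retnlg, Camp and Ngp not listed, and 2.36 and 1.44 FPKM for 3 of 6 eosinophil markers, with Epx, Ccr3 and Ear6 not listed and Siglecf called lower (53 and 27 counts, log2 ratio -0.99). All 7 T cell markers summed to 3.06 and 2.49 FPKM, all 6 B cell markers to 6.53 and 5.78 FPKM, all 6 mast cell markers to 4.75 and 3.67 FPKM, and all 5 dendritic cell markers to 0.88 and 0.99 FPKM. The 8 mesothelial and fibroblast markers summed to 45.5 and 40.5 FPKM, with Lrrn4 called higher (32 and 68 counts) and Msln lower (12 and 2 counts). The part of these cells in the results below was not tested. In bulk RNA a change in the share of a cell type and a change in RNA per cell cannot be told apart.

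Egr2 was the most abundant member in both libraries and rose the most. It had 970 expected counts in NT cells and 3224.68 in IL-4 cells, or 29.41 and 95.84 FPKM. The IL-4 library was therefore 3.26-fold higher, with a log2 ratio of 1.70 (interval 1.60 to 1.81) that lay wholly above the threshold. By level, 84.5% of the genes listed in the NT library and 94.9% of those listed in the IL-4 library had a lower FPKM than Egr2. By change, Egr2 ranked 74 from the top among the 8461 genes with at least 200 counts in all. Of the 12 alternatives run, 1 ended its call, an edgeR exact test in which variation between animals was assumed to have a coefficient of 0.4. Under this setting 65 genes in all were called higher and 8 lower.

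**Figure D1:**
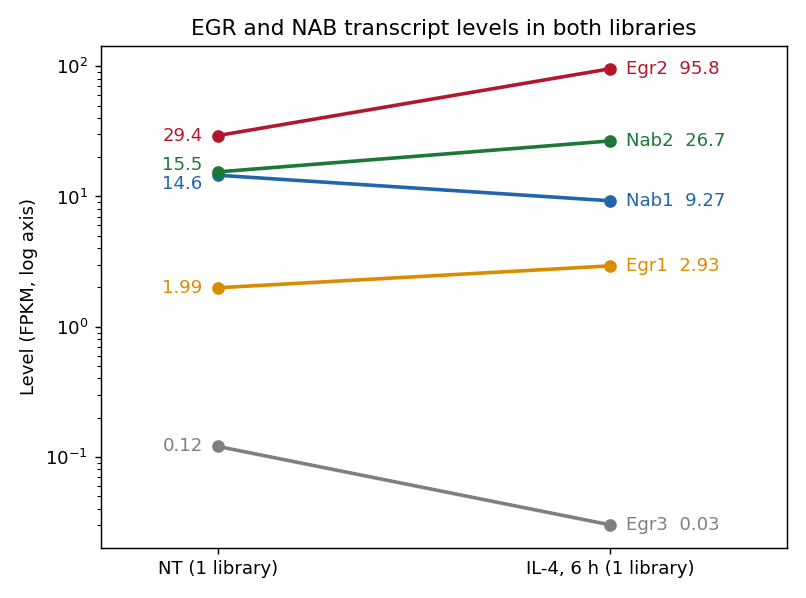
Level of each member in FPKM (log axis) in the NT library and the library stimulated with IL-4 for 6 h, 1 point per library joined by a line for each gene. Egr2 goes from 29.41 to 95.84 FPKM and Nab2 from 15.46 to 26.72 FPKM, while Nab1 goes from 14.56 to 9.27 FPKM and Egr3 stays near the bottom of the axis.

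The transcript listed for Egr2 starts on chromosome 10 at position 67537869 (GRCm38, plus strand), within a gene that RefSeq places from 67534469 to 67542188. Its upstream sequence is shown since Egr2 carried the largest change. It is also shown since SRF binds a CArG box, an element through which some immediate early genes are switched on. The 100 bases before the start site, chr10:67537769-67537868 on the plus strand (RefSeq, GRCm38.p6), hold 1 such box in capitals.
Egr2 upstream: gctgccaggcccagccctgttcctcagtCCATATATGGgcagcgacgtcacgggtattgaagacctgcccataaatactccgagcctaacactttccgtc
The box begins 72 bases before the start site and reads the same on both strands. Of 32851 RefSeq promoter windows of 300 bases (250 before a start site and 50 from it on), 1.63% hold a CArG box. Another 4 windows are listed for other Egr2 start sites, of which 2 overlap the same box, 1 holds a different one and 1 holds none. None of the 5 Egr2 windows holds the EGR site GCGNGGGCG, the cyclic AMP element TGACGTCA, or the STAT sites TTCNNNGAA and TTCNNNNGAA, all searched on both strands. These motifs are in 5.55%, 1.79%, 8.3% and 6.95% of all windows. A match is a run of letters and not a measured binding site, and the windows are short.

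Nab2, the corepressor that EGR factors induce, was the other member called higher. It had 424.17 expected counts in NT cells and 752.13 in IL-4 cells, or 15.46 and 26.72 FPKM. The IL-4 library was 1.74-fold higher, a log2 ratio of 0.80 whose interval, from 0.63 to 0.97, included the threshold but lay above 0. Longer transcripts had lower ratios in these libraries, and the length trend of a gene is the median ratio of genes of like length. The Nab2 call was lost with that trend subtracted (0.73), with the ratio threshold raised to 1, and when the assumed coefficient was 0.2 or 0.4.

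Nab2 lies on chromosome 10 from 127660918 to 127666703, minus strand, and its last 70 bases overlap the end of Stat6 on the other strand in RefSeq. Stat6 encodes the transcription factor that IL-4 activates. Whether the counting used strand was not given in the sources used here, so reads from those 70 bases cannot be assigned with certainty, against a Nab2 transcript length of 2479 bases in the NT table. Stat6 had 2951 counts in NT and 2420 in IL-4, a log2 ratio of -0.31 that did not pass the threshold. The neighbours thus differed in direction, Nab2 being higher and Stat6 lower in the IL-4 library.

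The upstream sequence of Nab2 is shown since the gene is a known EGR target. The stretch from 100 to 11 bases before its RefSeq start site at 127666703, chr10:127666714-127666803 on the minus strand (GRCm38.p6), holds the shorter EGR core GCGTGGGC on the opposite strand, in capitals.
Nab2 upstream: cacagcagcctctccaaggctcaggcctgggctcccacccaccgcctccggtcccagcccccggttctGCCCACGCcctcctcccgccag
The core was added to the search after this sequence had been seen, and 1.63% of all windows hold it. The full site GCGNGGGCG, which overlaps the core, is not in the Nab2 window, and neither are the CArG box, the cyclic AMP element and both STAT sites.

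Nab1, the other corepressor, was less abundant in the IL-4 library but was not called. It had 827.96 expected counts in NT cells and 537.98 in IL-4 cells, or 14.56 and 9.27 FPKM. The interval of its log2 ratio (-0.65) ran from -0.81 to -0.49, below 0 but across the threshold. It was called lower at a fold change over 1.5 with an adjusted value of at most 0.05. Nab1 has a transcript of 5098 bases, and genes of its length had a median ratio of -0.22 in these libraries. With that median subtracted the Nab1 ratio was -0.43, with an interval from -0.59 to -0.27.

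Nab1 lies on chromosome 1 from 52455849 to 52500712, minus strand. Its RefSeq window, with a start site at 52500448, holds the full EGR site at 3 places, unlike the windows of Egr2 and Nab2. One site with its surroundings, chr1:52500539-52500568 on the minus strand (GRCm38.p6), is shown with the site in capitals.
Nab1 site: cactcggccgcGCGTGGGCGggagccggag
The site begins 109 bases before that start site, and the other two begin 141 and 38 bases before it. Both annotations carry the gene beyond that start site, to 52500712 in RefSeq and, with a first exon from 52500210 to 52500679, in GENCODE, so these bases lie inside the gene in either. The shorter core GCGTGGGC of the Nab2 stretch is within 2 of these 3 places. The CArG box, the cyclic AMP element and both STAT sites are not in the Nab1 window.

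The levels of the pair of corepressors moved apart between the libraries. In the NT library Nab2 and Nab1 were at 15.46 and 14.56 FPKM, a Nab2 to Nab1 ratio of 1.06 with a counting interval from 0.942 to 1.19, which includes equality. In the IL-4 library the ratio was 2.88 (interval 2.58 to 3.23), and the intervals of the libraries do not overlap. Nab2 made up 51.5% of the summed NAB level in NT and 74.2% in IL-4. These values are not adjusted for the length trend. With it subtracted, the log2 ratio was 0.73 for Nab2 (interval 0.56 to 0.90) and -0.43 for Nab1 (-0.59 to -0.27), and neither was called.

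**Figure D2:**
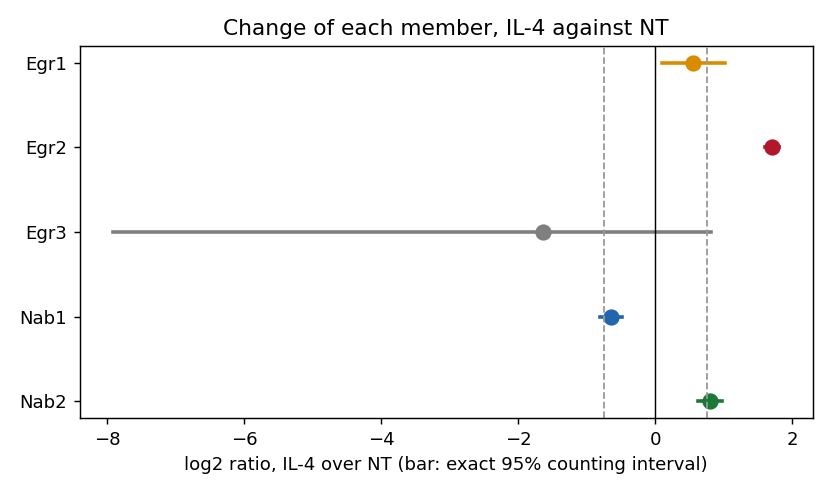
Log2 ratio of IL-4 over NT for each member, with its exact 95% counting interval as a bar and the thresholds of 0.75 in size as dashed lines. Egr2 lies wholly above the upper threshold at 1.70, the bars of Nab2, Nab1 and Egr1 each cross a threshold, and the bar of Egr3 runs from -7.91 to 0.81.

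Egr1 encodes the founding member of the family, a rapid responder to growth factors and stress. It lies on chromosome 18 from 34861207 to 34864956, plus strand. It had 68 expected counts in NT cells and 102 in IL-4 cells, or 1.99 and 2.93 FPKM. The interval of its log2 ratio (0.55) ran from 0.10 to 1.02, which excluded 0, but Egr1 did not reach the threshold and was not called. It was not called under any of the 12 alternatives run. In the NT library 36.2% of listed genes had a lower FPKM, and in the IL-4 library 42.0%.

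Egr3, a factor best known in lymphocytes, muscle spindles and neurons, was near the detection limit. It lies on chromosome 14 from 70077317 to 70082613, plus strand. It had 5 expected counts in NT cells and 1.31 in IL-4 cells, or 0.12 and 0.03 FPKM. The latter is under the floor of 3 counts, which is 0.267 counts per 1000000 in the IL-4 library. The interval of its log2 ratio (-1.63) ran from -7.91 to 0.81 and included 0, so no difference in Egr3 was detectable at this depth. Egr4, the remaining EGR gene, was listed in neither library, and Wt1, which encodes a zinc-finger factor with a related DNA-binding domain, had 68 counts in NT and 65 in IL-4 and was not called.

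Ordered by FPKM, the members in both libraries ran Egr2, Nab2, Nab1, Egr1 and Egr3. Neighbours in this order differed by more than counting error except Nab2 and Nab1 in the NT library. Egr2 exceeded Nab2 by 1.90 times in NT (interval 1.70 to 2.14) and by 3.59 times in IL-4 (3.31 to 3.89). Nab1 exceeded Egr1 by 7.32 times in NT (5.71 to 9.51) and by 3.16 times in IL-4 (2.56 to 3.95). Egr2 was the bulk of the EGR level, with 93.3% of the summed FPKM of the 3 factors in NT and 97.0% in IL-4.

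The balance between factors and corepressors was read from the same sums. The EGR members summed to 31.5 FPKM in NT and 98.8 FPKM in IL-4, a ratio of 3.13. The NAB members summed to 30.0 FPKM in NT and 36.0 FPKM in IL-4, a ratio of 1.20. The NAB to EGR ratio was 0.952 in NT, with a counting interval from 0.876 to 1.03, and 0.364 in IL-4, from 0.341 to 0.389. Each interval is that of the summed counts, rescaled to FPKM with the make-up of each sum held fixed, so it is approximate. The intervals do not overlap, and the corepressor transcripts were fewer per EGR transcript in the IL-4 library. Summed as counts without regard to length the NAB ratio was 1.01, and the NAB to EGR ratio was 1.20 in NT and 0.388 in IL-4. Protein was not measured.

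**Figure D3:**
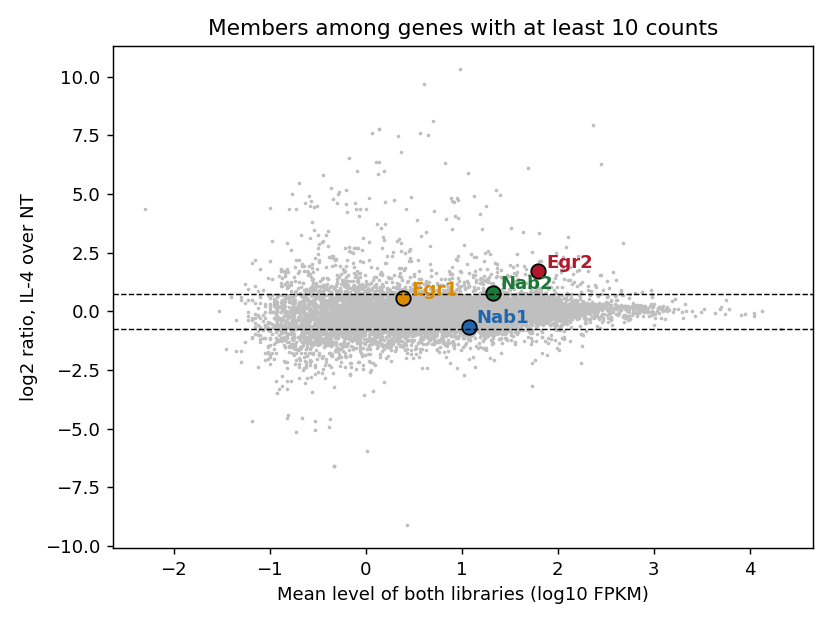
Log2 ratio of IL-4 over NT against the mean level of both libraries (log10 FPKM) for genes with at least 10 counts in all, 1 gray point per gene, with the thresholds of 0.75 in size as dashed lines. Egr2 is well over the upper line, Nab2 is just over it, Nab1 is just inside the lower line, and Egr3 had too few counts to be drawn.

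The genes nearest in pattern were found by distance in log2 FPKM with 0.1 added, over 2 libraries only, among 12473 genes with at least 10 counts. For Egr2 these were Stxbp3 (27.65 and 95.65 FPKM in NT and IL-4, distance 0.0888), Ccl9 (24.29 and 108.79 FPKM, 0.330) and Rnf19b (23.57 and 103.73 FPKM, 0.338). For Nab2 they were Lat, Ptprj and Igf1, at distances from 0.0472 to 0.0852. For Nab1 they were Ccnd3, Ankhd1 and Coro2a, from 0.0159 to 0.0378, and for Egr1 Angptl6, Ifi205 and Ubox5, from 0.0344 to 0.0514. Egr3 had under 10 counts and was left out.

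Genes that regulate the EGR genes were read next. The 8 genes for SRF, its cofactors and related factors had a median log2 ratio of -0.45, beside -0.03 over all tested genes. With the length trend subtracted these medians were -0.34 and -0.04. Of the 8, 0 were called higher and 1 lower, beside 4.09% higher and 6.75% lower over all tested genes. That gene was Mrtfb, an actin-regulated SRF coactivator, with 1462.14 and 869.66 counts (log2 ratio -0.78), but its ratio was -0.37 with the length trend subtracted and the call was lost. Among 9 feedback inhibitors of ERK signalling the median was -0.28, the ratio of Dusp6 (82 and 69 counts). Its interval, from -0.76 to 0.20, included 0. Spry1, Spry4 and Spred3 had at most 5 counts in either library. The list summed to 18.06 FPKM in NT and 22.84 FPKM in IL-4. Of the 9 genes, 1 was called higher and 0 lower, beside the same all-gene shares of 4.09% and 6.75%. The called gene was Dusp4, a nuclear MAP kinase phosphatase, with 101 counts in NT and 266 in IL-4 (log2 ratio 1.36, interval 1.03 to 1.71).

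The other immediate early genes, some of which share the ERK and SRF input with the EGR genes, split. Over all tested genes 4.09% were called higher and 6.75% lower. Of the 30 in this list, 8 were called higher, 1 lower and 21 neither, with a median log2 ratio of 0.18. Those higher with the most counts were Atf3, a stress-induced repressor, with 4981 counts in NT and 10192 in IL-4 (log2 ratio 1.01), and Zfp36, which encodes an mRNA-destabilizing protein, with 580 and 1033 counts (0.80). The gene called lower was Per1, a circadian repressor, with 364 and 173 counts (-1.10). With the length trend subtracted, 7 were higher and 2 lower. Zfp36 (0.68) and Dusp2 (0.65) were then no longer called, while Fosl2 (0.997) became higher and Dusp1 (-0.75) lower. Of genes named after their values were seen, Ier3 had the largest ratio of the list, with 60 counts in NT and 728 in IL-4 (3.56, interval 3.19 to 3.98). By contrast Fos had 94 and 102 counts (0.09, interval -0.33 to 0.51) and Jun 2698 and 2692 counts (-0.03, interval -0.11 to 0.05), and neither was called. The counting interval of Egr2 lay above those of Fos and Jun and below that of Ier3. It overlapped, among others, those of Klf4 (1.41, interval 1.15 to 1.67), Csrnp1 (1.60, 1.30 to 1.92) and Myc (1.59, 1.26 to 1.93). Klf4, Csrnp1 and Myc are also named after their values were seen. Times before 6 h were not sampled in these libraries.

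NuRD is the chromatin complex that NAB proteins engage. Of 14 of its genes, 0 were called higher and 1 lower, with a median log2 ratio of 0.17. Over all tested genes 4.09% were called higher and 6.75% lower, with a median of -0.03. The called gene was Chd3, a chromatin remodelling ATPase, with 2189 counts in NT and 1209.02 in IL-4 (log2 ratio -0.88). It has a long transcript, and with the length trend subtracted its ratio was -0.44 and the call was lost. Chd4, the gene of the list with the most counts, had 6749 in NT and 8970 in IL-4 (0.38) and was not called. Its ratio was 0.67 with the length trend subtracted, and it is named after its value was seen.

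Genes reported elsewhere as targets of EGR factors went both ways. Of 20, 19 were tested (Fasl was not listed). The shares over all tested genes were 4.09% higher and 6.75% lower. Of these 19 targets, 5 were called higher, 3 lower and 11 neither, with a median log2 ratio of 0.01. Nab2 and Myc are in this count, and Myc is also among the immediate early genes. The higher genes with the most counts were Cd44, a hyaluronan receptor, with 2753 counts in NT and 5698 in IL-4 (log2 ratio 1.02), and Cdkn1a, which encodes the cell-cycle inhibitor p21, with 465 and 900 counts (0.92). The lower genes with the most counts were Vegfa, an angiogenic factor, with 602.41 and 289.31 counts (-1.08), and Tnf, an inflammatory cytokine, with 99 and 44 counts (-1.19). Myc, which has been used beside Egr2 as a marker of alternative activation, had 102 counts in NT and 313 in IL-4 (1.59, interval 1.26 to 1.93), and it is named here after its value was seen.

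**Figure D4:**
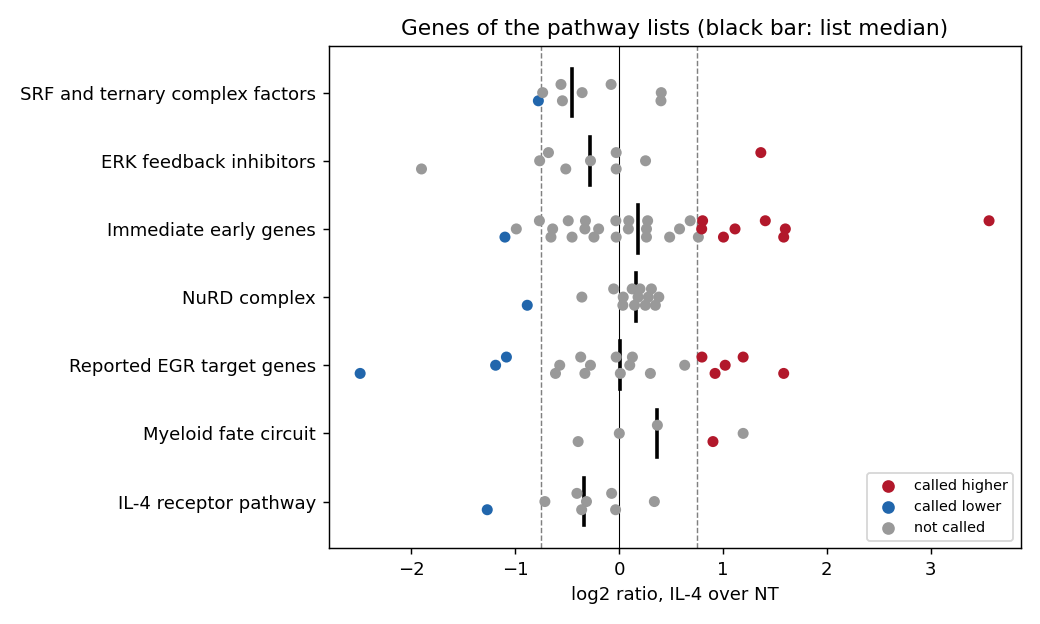
Log2 ratio of IL-4 over NT for the tested genes of 7 pathway lists, 1 point per gene, red for called higher, blue for called lower and gray for not called, with the list median as a black bar and the thresholds of 0.75 in size as dashed lines. The NuRD list has 1 called gene, Chd3, while the immediate early genes and the reported EGR targets have calls on both sides.

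The genes around EGR and NAB in the myeloid fate decision were read last. Over all tested genes 4.09% were called higher and 6.75% lower, with a median log2 ratio of -0.03. Of the 5 fate genes, 1 was called higher and 0 lower, with a median of 0.37. The called gene was Csf1r, the receptor for macrophage colony-stimulating factor, with 6236 counts in NT and 11896 in IL-4 (log2 ratio 0.90, interval 0.86 to 0.95). Spi1, which encodes PU.1, had 3705 and 3783 counts (0.00), and Gfi1, the neutrophil-fate repressor opposed by EGR and NAB proteins, had 1 and 3 counts, too few to compare. Of 8 genes of the IL-4 receptor pathway, 0 were called higher and 1 lower, with a median of -0.34. With the length trend subtracted that median was -0.20, beside -0.04 over all tested genes. The called gene was Irs2, an adaptor of the receptor, with 152 counts in NT and 64 in IL-4 (log2 ratio -1.27, interval -1.72 to -0.85).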

How the data were processed

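Total RNA of both samples was purified on columns, and BGI sequenced it on a HiSeq. Per the labels, the authors used Bowtie to align reads to the GRCm38/mm10 genome and RSEM to quantify genes, with versions not given in the sources used here. The deposited tables hold RSEM expected counts, not scaled for depth, FPKM values and a weighted transcript length for each gene. A gene absent from a table was set to 0. NCBI gene numbers were matched to symbols for 15587 of 15623 genes through RefSeq (GRCm38.p6).

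Expected counts were rounded for the exact two-sided binomial test of each of 15593 genes (the share of its reads in IL-4, set against that of the whole library), adjusted over all of them by Benjamini-Hochberg, and 30 genes at 0 in both libraries were left out. Intervals are Clopper-Pearson intervals of that share. For level ratios within a library, the share is of the counts of the compared genes or sums, and is rescaled to FPKM. The procedure was tested on simulated data with large changes and counting error only. That test cannot show how the procedure handles smaller changes or variation between animals. The length trend of a gene is the median ratio of 200 genes of the most similar length, each with at least 200 counts. In each list up to 4 called genes were named by summed count, at most 2 in each direction. The members and lists were chosen with earlier results of these data known. Python 3.11.15, scipy 1.17.1, edgeR 4.0.16 and DESeq2 1.42.0 were used. Alternatives were other scalings, constants, thresholds, filters and assumed variation. No promoter sequence of Egr1 or Egr3 was analysed here. The list of ERK cascade genes is not reported here.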

Additional observations from a re-analysis of the deposited data

How the results depend on the processing

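No paired analysis was possible because there was 1 library a group. Every alternative chosen for this comparison was run, but Egr3 had no value in the filter on at least 10 counts. The Nab2 ratio of 0.80 was no longer called in the edgeR exact test when the coefficient of variation was assumed to be 0.2 or 0.4, at a threshold of 1, and with the length trend subtracted (0.73). The Egr2 ratio of 1.70 lost its call with 0.4, and the Nab1 ratio of -0.65 gained one at a fold change over 1.5. Summed counts without length gave a NAB ratio of 1.01 and a NAB to EGR ratio in NT of 1.20. No member reversed its direction, and of 59 member results under these alternatives 53 kept their call or lack of a call. The genes called higher and lower, 637 and 1053, were 391 and 401 with FPKM plus 1, 390 and 423 with a coefficient of 0.2, 65 and 8 with 0.4, and 423 and 522 at a threshold of 1. A log2 threshold, a count filter or an assumed variation leaves each ratio as it is, so those settings could not reverse a direction. Another scaling moved all ratios together, by 0.037 or less in size. Depth limits Egr3, with 6 reads in all, and Egr1, whose interval spans the threshold.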
